A study of Mus musculus with 36 samples.

Results

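Control cells of the mouse pre-B line B3 were compared by reduced representation bisulfite sequencing (RRBS) between late and early times of 4-hydroxytamoxifen (4-OHT) exposure. The members are 12 of the 36 samples of the series, taken by the series and time in their labels: 6 late samples (12 and 18 h) and 6 early samples (2 and 6 h), with 3 samples at each time. All of them carry a mouse stem cell virus (MSCV) retrovirus with the hormone-binding domain ERt2 of the estrogen receptor and GFP behind an internal ribosome entry site, without Ikaros, and were sorted by their GFP level and then expanded. The labels give 4-OHT at 0.5 µM for every sample, and the study's methods describe flasks of a batch that received it at staggered times before a common harvest. Batches 1, 3 and 4 each supplied 1 sample per time, numbered here as replicates 1, 2 and 3. At 0 h, a time used for description only, the second sample is of batch 2 in place of batch 3, and the methods say that 0 h cells were obtained separately, so 0 h levels also differ from the others in culture. The labels disagree with the methods on the drug: they also name it for the 0 h samples, which the methods leave without it, and give a single interval of 2 h before collection. Hours of exposure are taken here from the sample titles. The comparison addresses whether hours of exposure to the drug, without induced Ikaros, move DNA methylation.

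DNA methylation in mammals sits mainly on the cytosine of CG dinucleotides (CpG). Dnmt1, brought to replicating DNA by Uhrf1, copies it onto the new strand, Dnmt3a and Dnmt3b add it to unmethylated DNA, and Tet enzymes oxidise it as a first step of removal. CpG-rich starts of genes in use are usually free of methylation, while starts of germline genes and of 1 parental copy of imprinted genes are methylated in normal tissues. RRBS cuts DNA with MspI at CCGG and so reads mostly CpG-rich stretches near gene starts.

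The deposited levels covered 1116417 positions, of which 1039524 had a value in all 12 samples. Positions at most 100 bp apart formed 18009 CpG clusters, and 17718 of these held at least 1 complete position and were compared. A tested cluster held a median of 44 complete positions. Levels are smoothed percentages of methylation, and read depth is unknown for every value.

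No CpG cluster passed the test for a difference between late and early Control cells. The leading differences by size that separated the groups were 2 clusters lower at 12 and 18 h, in the neuronal transcription factor gene Neurog2 and in the adaptor gene Stap2, and neither passed the test across all clusters. Their sequences are shown with those of 2 other clusters. One, with almost no methylation, lies at the start of Wrb, which codes for a receptor for tail-anchored proteins at the endoplasmic reticulum. All its late samples lay above its early ones, as given below, so it is no unchanged reference. The other, near the start of the imprinted antisense RNA Kcnq1ot1, was at an intermediate level. Each sequence is the forward strand of GRCm38, with every CG dinucleotide in capitals. The stretches are chr3:127633808-127633905 (Neurog2), chr17:56000475-56000729 (Stap2), chr16:96145498-96145731 (Wrb) and chr7:143295405-143295611 (Kcnq1ot1).
Neurog2: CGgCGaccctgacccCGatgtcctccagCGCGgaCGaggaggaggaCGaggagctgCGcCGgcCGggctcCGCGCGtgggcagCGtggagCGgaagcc
Stap2: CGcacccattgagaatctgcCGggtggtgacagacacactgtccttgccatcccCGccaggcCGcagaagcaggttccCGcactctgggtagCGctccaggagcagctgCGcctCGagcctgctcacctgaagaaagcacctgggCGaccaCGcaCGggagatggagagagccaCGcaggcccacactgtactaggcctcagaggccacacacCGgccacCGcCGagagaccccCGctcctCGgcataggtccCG
Wrb: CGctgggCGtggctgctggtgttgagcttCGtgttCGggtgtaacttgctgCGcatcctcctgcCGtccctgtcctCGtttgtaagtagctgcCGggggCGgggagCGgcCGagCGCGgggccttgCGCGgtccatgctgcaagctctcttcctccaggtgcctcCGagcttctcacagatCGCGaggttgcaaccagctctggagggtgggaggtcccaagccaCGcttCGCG
Kcnq1ot1: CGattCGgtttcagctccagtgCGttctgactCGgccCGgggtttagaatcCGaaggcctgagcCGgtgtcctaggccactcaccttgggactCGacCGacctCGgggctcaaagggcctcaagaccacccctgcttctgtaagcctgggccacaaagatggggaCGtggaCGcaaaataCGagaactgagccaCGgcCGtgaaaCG
The table of levels listed at least 1 strand of 14 of the 15 CG dinucleotides of the Neurog2 cluster, a stretch of 98 bp, and of 16 of the 18 of the Stap2 cluster, a stretch of 255 bp. CG dinucleotides were thus denser at Neurog2, where the observed-to-expected ratio of CG was 1.06, than at Stap2, where it was 0.653.

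The mean level over all 17718 clusters did not differ between the groups beyond the spread of the samples. In the early samples it was 46.9, 46.7 and 46.9% at 2 h and 46.9, 46.9 and 46.7% at 6 h, in the order of batches 1, 3 and 4. In the late samples it was 46.6, 46.8 and 47.1% at 12 h and 46.9, 46.9 and 46.8% at 18 h. Both the lowest and the highest sample were at 12 h, so that the early values lay inside the late range. The group means were 46.8% ± 0.0991 (SD, n = 6) early and 46.8% ± 0.165 (SD, n = 6) late. The difference was 0.00906 percentage points (95% interval -0.195 to 0.222, two-sided exact permutation within batches, p = 0.917, adjusted p = 0.972 over 9 mean levels). The design of 216 arrangements could give a p as small as 0.00926. Within batches the difference was -0.121 points in batch 1, 0.018 in batch 3 and 0.130 in batch 4, so the batches did not share a direction. Without the sample at 18 h of batch 4, which correlated least with the others, it was 0.0316 points.

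**Figure D1:**
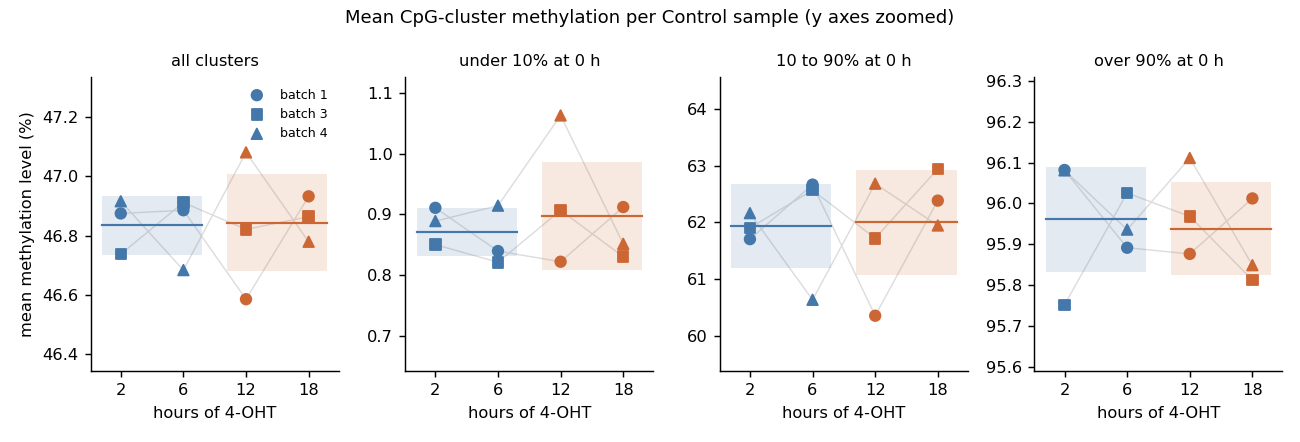
Mean methylation level in percent of each Control sample (points, shaped by batch) against hours of 4-OHT, over all clusters and over clusters by their level at 0 h, with the mean (line) and SD (band) of 6 early (blue) and 6 late (orange) samples. Each y axis is zoomed to the spread of the samples, and early and late bands overlap in every panel.

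Sorting the clusters by their level in the Control cells at 0 h, which took no part in the comparison, split them into largely unmethylated and largely methylated sets. A level under 10% at 0 h was found for 8199 clusters, 10 to 90% for 2035 and over 90% for 6663, while 821 had no complete 0 h value. The unmethylated set averaged 0.871% ± 0.0392 early and 0.898% ± 0.0895 late (SD, n = 6 each), a difference of 0.0268 points (95% interval -0.057 to 0.117). The methylated set averaged 96.0% ± 0.129 early and 95.9% ± 0.113 late, a difference of -0.023 points (95% interval -0.213 to 0.169). In both sets the interval of the difference stayed within 1 point of 0. Intermediate clusters averaged 61.9% ± 0.739 early and 62.0% ± 0.927 late, a difference of 0.0651 points whose interval ran wider, from -1.25 to 1.25. In that set batch 1 moved by -0.817 points and batch 4 by 0.915. The exact permutation test gave p = 0.537, 0.907 and 0.731 for the unmethylated, intermediate and methylated sets, all with an adjusted p = 0.972. Leaving out the 18 h sample of batch 4 turned the sign in the methylated set, to 0.0105 points, and moved the unmethylated set to 0.0496 and the intermediate set to 0.051 points, all within the spread.

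Gene context gave the same picture. Most clusters, 13637, lay within 1000 bp of the start of a protein-coding gene (GENCODE M21), and their mean level was 37.1% in both groups, the mixture of starts at almost 0 and starts almost fully methylated. The 767 clusters at starts of other genes averaged 69.9% early and 70.0% late. Exons away from starts held 1536 clusters at 89.0% in both groups, introns 611 at 76.8% in both, and intergenic DNA 1167 at 74.7% in both. The difference was 0.0129 points at protein-coding starts (95% interval -0.181 to 0.218), 0.028 at other starts (-0.237 to 0.293), -0.00237 in exons (-0.178 to 0.173), 0.0451 in introns (-0.154 to 0.319) and -0.0518 in intergenic DNA (-0.373 to 0.190). None of the 5 contexts differed beyond the spread of the samples, the exact permutation p being between 0.694 and 0.972 and every adjusted p 0.972. Without the 18 h sample of batch 4 the exon difference turned to 0.0057 points, and the difference was 0.039 points at protein-coding starts, 0.0494 at other starts, 0.083 in introns and -0.0597 in intergenic DNA.

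Single clusters held steady to a degree that depended on their level. The median range over the 12 samples was 1.05 points for clusters under 10% at 0 h, 4.21 points over 90% and 11.2 points in between. The range stayed under 5 points in 95.4% of the unmethylated clusters, 62.0% of the methylated ones and 11.9% of the intermediate ones. Intermediate clusters at protein-coding starts were the most variable, with a range over 20 points in 375 of 1288. The median late-minus-early difference over all clusters was 0.0124 points, with the 5th and 95th percentiles at -1.65 and 1.68 points.

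The test with batch as a block (limma, moderated test with Benjamini-Hochberg adjustment) called 0 clusters higher late (0% of those tested) and 0 lower late (0%), with a smallest adjusted p of 0.78. At an unadjusted p under 0.05 it listed 383 clusters as higher (2.16%) and 346 as lower (1.95%). For 15766 clusters (89.0%) the 95% interval of the difference lay wholly within 5 points of 0. That share was 99.0% in the unmethylated set, 92.6% in the methylated set and 43.9% in the intermediate set, so changes of several points at intermediate clusters could not be told from the spread. No call was made either without the 18 h sample of batch 4 or without all 4 samples of batch 4. With M-values, the log2 ratio of methylated to unmethylated share, in place of levels, the count was again 0 in both directions.

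**Figure D2:**
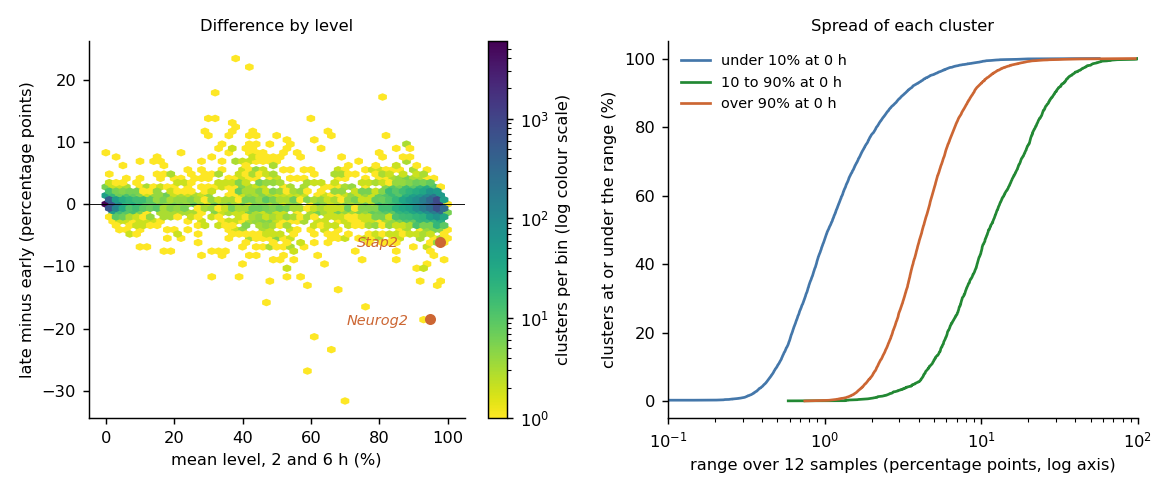
Left, late minus early difference of each cluster in percentage points against its mean level at 2 and 6 h, coloured by clusters per bin on a log scale, with Neurog2 and Stap2 marked in orange. Right, the cumulative share of clusters in percent against their range over 12 samples on a log axis, by level at 0 h, where the intermediate clusters (median range 11.2 points) lie to the right of the others.

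In 13 clusters all 6 late samples lay above all 6 early samples (0.0734% of the clusters tested), and in 9 all lay below (0.0508%). With a difference of at least 5 points, none was higher (0%) and 2 were lower (0.0113%). The latter counts depended on single samples. Leaving out any 1 of the 12 gave 1 to 3 higher, with 3 without the 6 h sample of batch 1. The lower count rose to 5 without the 2 h sample of batch 1, the 12 h sample of batch 3 or the 18 h sample of batch 3, to 4 without the 6 h sample of batch 4 or the 18 h sample of batch 1, and was 2 or 3 otherwise. Without the 18 h sample of batch 4 there were 1 higher and 2 lower. These counts are a description, since none of the clusters passed the test.

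The Neurog2 cluster lies in an exon of that gene outside its UTRs, 673 bp from the start. Its level was 84.9, 96.1 and 97.9% at 2 h and 96.1, 96.6 and 97.8% at 6 h, in the order of batches 1, 3 and 4. At 12 h it was 74.0, 84.1 and 58.3%, and at 18 h 83.3, 81.6 and 77.1%. The groups were 0.783 points apart at their closest, between the 2 h sample of batch 1 and the 12 h sample of batch 3. The mean fell from 94.9% ± 4.98 to 76.4% ± 9.69 (SD, n = 6 each), a difference of -18.5 points (95% interval -28.1 to -8.89, limma adjusted p = 0.981). It was -11.8, -13.5 and -30.2 points within batches 1, 3 and 4, and -19.4 points without the 18 h sample of batch 4. The times outside the comparison did not extend the pattern: the level was 81.6, 86.4 and 80.9% at 0 h (batches 1, 2 and 4), in the range of the late samples or just above it, and 87.0, 81.8 and 96.8% at 24 h. Only the 2 h sample of batch 1 among the early samples lay within the range of the 0 h samples, which came from separate cultures.

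Along the Neurog2 cluster all 29 positions had a lower mean late, by 3.44 to 34.6 points, with the smallest difference at the first position of the printed sequence and the largest at its final lower-case c, which forms a CG dinucleotide with the next base of the genome beyond the window. Without the 12 h sample of batch 4 these became -2.23 and -28.5 points. At 19 of these positions the late and early samples did not overlap. Smoothing couples neighbouring positions, so they do not count as separate measurements. A second Neurog2 cluster, over the gene start at chr3:127632899-127633545, stood at 96.8% ± 0.595 early and 96.3% ± 0.415 late, with early samples from 96.0 to 97.6% and late samples from 95.8 to 97.0%, so that the groups overlapped.

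Stap2 codes for a signal-transducing adaptor protein. Its cluster overlaps an exon outside the UTRs, 1995 bp from the start, and stood at 96.2, 95.2 and 100% at 2 h and 98.6, 98.7 and 97.3% at 6 h. It was 92.0, 93.5 and 87.6% at 12 h and 93.9, 92.2 and 90.6% at 18 h, so the highest late sample lay 1.32 points below the lowest early one. The mean went from 97.7% ± 1.78 to 91.6% ± 2.29 (SD, n = 6 each), a difference of -6.06 points (95% interval -8.75 to -3.36, limma adjusted p = 0.981). Within batches 1, 3 and 4 the difference was -4.46, -4.14 and -9.57 points, and it was -6.00 points without the 18 h sample of batch 4. At 0 h the level was 96.4, 95.04 and 94.0%, and at 24 h 96.5, 97.4 and 95.035%, all above the late samples. The mean was lower late at all 27 positions, by 2.16 to 19.3 points, but the groups failed to overlap at only 4 of them. The largest difference, at the end of the printed sequence, was -8.48 points without the 12 h sample of batch 4, and the smallest, at its start, was -0.797 points without the 18 h sample of batch 3 and -3.64 without the 12 h sample of batch 3.

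**Figure D3:**
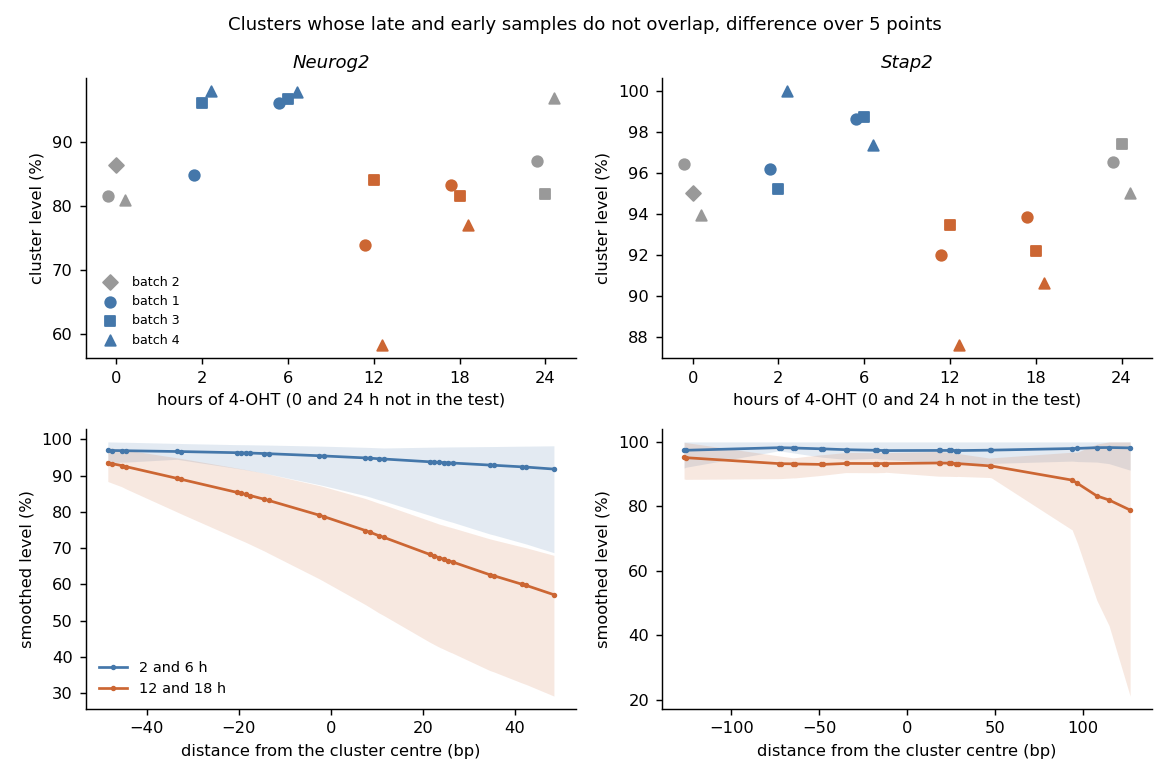
Upper panels, level in percent of the Neurog2 and Stap2 clusters in every Control sample (points, shaped by batch) against hours of 4-OHT, with 2 and 6 h in blue, 12 and 18 h in orange, and 0 and 24 h, outside the test, in grey (at 0 h a diamond marks batch 2). Lower panels, mean smoothed level (line) and range over samples (band) at each position against the distance from the cluster centre in bp, early in blue and late in orange, where late means are lower at all 29 and 27 positions.

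The same contrast was computed in the Ikaros series, where the retrovirus carries Ikaros fused to ERt2. At Stap2 the Ikaros difference was -0.0619 points (95% interval -4.48 to 4.36). The change in Ikaros cells was 6.00 points above that in Control cells (95% interval 1.02 to 10.97), which did not pass the test of the difference across all clusters (limma adjusted p = 0.963). Neurog2 had no position with a value in all samples of both series, and its Ikaros levels ran from 84.6 to 100% early and from 72.6 to 100% late with 1 sample missing. Across 17672 clusters the change differed between the series at 0 of them, with 470 higher and 243 lower in Ikaros at an unadjusted p under 0.05 and a smallest adjusted p of 0.963. The mean level changed by 0.00668 points in Control and 0.127 in Ikaros cells, a difference of 0.120 points (two-sided exact permutation of 6 batch changes, p = 0.6, the smallest possible being 0.1).

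Apart from these, 5 of the clusters without overlap differed by 2 to 5 points, and they are named here after their values were seen. B3gnt8, which codes for a glycosyltransferase of poly-N-acetyllactosamine chains, was higher late at its start. Its level was 96.3, 96.9 and 96.2% at 2 h, 96.8, 96.7 and 96.2% at 6 h, 98.8, 97.4 and 98.6% at 12 h and 99.4, 99.4 and 98.3% at 18 h. The early samples were tightly grouped, and the late ones lay 0.425 points or more above them. The difference was 2.12 points (95% interval 1.34 to 2.89, limma adjusted p = 0.935). It was the single cluster to be called under any of the settings tried, with a limma adjusted p of 0.011 and a difference of 2.44 points once the 12 h sample of batch 3 was left out. At 0 h the level was 98.0, 99.0 and 98.9%, in the range of the late samples.

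Zfhx3, a homeobox transcription factor gene, averaged 86.6% ± 1.74 early and 90.03% ± 1.24 late at its start, and Cldn7, a tight junction claudin gene, averaged 91.1% ± 2.15 and 94.997% ± 0.921. Nrk, a kinase gene on chromosome X, went the other way, from 96.8% ± 1.82 to 93.6% ± 0.526. In all 3 the limma adjusted p was 0.981, and the batches shared the direction, which follows from the lack of overlap. At 0 h Zfhx3 stood at 89.9, 92.9 and 91.3%, in or above the late range. At 24 h it stood at 88.5, 94.8 and 89.8%. Cldn7 stood at 47.3, 91.4 and 93.4% at 0 h and 86.8, 93.97 and 91.5% at 24 h, all below the late samples. Nrk stood at 99.6, 97.3 and 98.0% at 0 h and 96.3, 94.7 and 96.9% at 24 h, all above the late samples. Wrb, whose cluster is printed among the sequences, averaged 0.826% ± 0.859 early and 2.95% ± 0.836 late, a difference of 2.12 points (95% interval 1.18 to 3.06). Its limma adjusted p was 0.981, and 19 of its 33 positions had a value in all 12 samples. Its early samples ran from 0.0 to 1.95% and its late samples from 2.13 to 4.26%. At 24 h it stood at 1.61, 0.243 and 0.0%, in the range of the early samples. The 0 h samples of batches 2 and 4 stood at 1.37 and 1.75%, also in that range, and that of batch 1 had no value.

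The clusters with the smallest unadjusted p outside these sets, also chosen after their values were seen, all moved by under 3 points. A cluster 27870 bp from the nearest gene start, that of the microtubule-binding protein gene Eml4, averaged 92.8% ± 1.51 early and 95.6% ± 1.06 late, with a limma adjusted p of 0.78. Nhlh2, a neuronal basic helix-loop-helix gene, averaged 97.2% ± 0.393 and 96.2% ± 0.255 in an exon, with the same adjusted p. For Nhlh2 the groups lay 0.166 points apart. The potassium channel gene Kcnk15 averaged 91.1% ± 0.999 and 92.7% ± 1.24 with overlap.

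The largest differences in size, named after their values were seen, came with wide spreads, and none passed the test. The largest was at an intergenic cluster 9549 bp from the start of 4932438A13Rik. Its level was 79.98, 51.0 and 100% at 2 h and 49.7, 54.02 and 90.7% at 6 h, against 14.2, 0.0 and 46.6% at 12 h and 58.03, 64.1 and 52.5% at 18 h. The difference was -31.7 points (95% interval -58.6 to -4.70, limma adjusted p = 0.981), with overlap between the groups. An intergenic cluster 4288 bp from the start of Spag6, a sperm flagellum gene, differed by -23.3 points (95% interval -58.6 to 12.1), with early samples from 33.6 to 95.9% and late samples from 8.74 to 88.1%. An intron of Dusp4, a phosphatase gene of the MAP kinase pathway, differed by -20.985 points (95% interval -33.5 to -8.51), with early samples from 48.4 to 69.0% and late samples from 22.6 to 54.4%. Its groups overlapped, and its 0 h samples, at 9.57, 49.9 and 0.0%, spread further than either group. In the other direction Slc17a7, a vesicular glutamate transporter gene, differed by 23.5 points (95% interval 2.47 to 44.4) and Rnf150, a ring finger gene, by 21.8 points (95% interval -5.32 to 48.9), both with overlap. Cysrt1 differed by 18.3 points (95% interval 4.20 to 32.4), with early samples from 20.5 to 45.4% and late samples from 39.7 to 70.5%.

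For 2 of these large differences 1 library set most of the value. Gpr139, an orphan receptor gene, differed by -18.6 points with the 18 h sample of batch 4 at 0.0%, and by -4.16 points without that sample, the other late samples being between 84.3 and 96.6%. Pawr, a gene for a pro-apoptotic protein, differed by 17.4 points with the 6 h sample of batch 4 at 3.62%, and by 2.01 points without it, the other early samples being between 92.6 and 100%. Also named after its values were seen, an exonic cluster of Spib, which codes for an Ets transcription factor of B cells, differed by 14.0 points (95% interval -4.4 to 32.4), with early samples from 9.81 to 58.7% and late samples from 31.2 to 60.5%. L3mbtl3, a chromatin reader gene likewise named after its values were seen, had 6 complete positions. Its samples ran from 24.7 to 100% early and from 0.0 to 64.3% late. Leaving out 1 sample also moved the differences at Spag6 (to -13.7 points without the 6 h sample of batch 1), Spib (to 8.51 without the 12 h sample of batch 4) and L3mbtl3 (from -27.0 to -14.7 without the 2 h sample of batch 4) by over 1.5 times.

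Libraries of batch 4 stood apart in this respect. They lacked a value at 2.79, 0.690, 2.92 and 2.88% of positions at 2, 6, 12 and 18 h, against 0.121 to 0.402% in the other 8 samples. Of the 663 clusters with a range over 20 points, a batch 4 library lay farthest from the median in 405 (61.1%), batch 3 in 162 and batch 1 in 96. Mean correlation with the other 11 samples was lowest for the 18 h sample of batch 4 (0.99595), closely followed by its 12 h and 2 h samples (0.99619 and 0.99627). Each group held 2 of these 4 libraries, but the early 6 h library stood closer to the rest, with a mean correlation of 0.99688. The part of these libraries in single differences was not tested beyond the values without them.

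**Figure D4:**
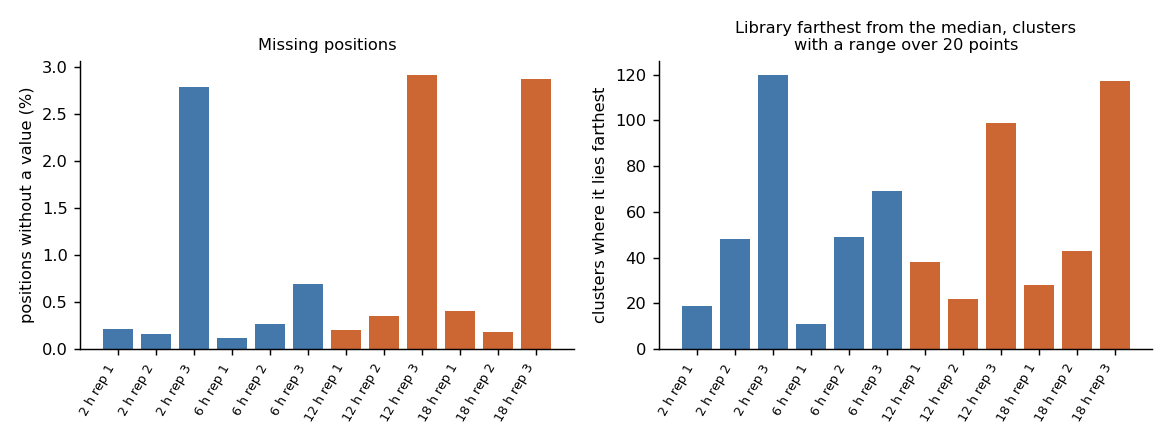
Left, share of positions without a value in percent for each Control sample; right, number of clusters, out of 663 with a range over 20 points, in which that sample lay farthest from the median, with early samples in blue and late in orange. Replicate 3 is batch 4, whose 2, 12 and 18 h samples are the highest bars in both panels.

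Methylation at gene starts was described with 11 lists of genes, each counted over all clusters within 1000 bp of a start of its genes. The share of clusters called is 0 in every list, as over all clusters. Values for a gene refer to the cluster nearest its start. With bulk DNA, an intermediate level cannot be told apart from a mixture of cells.

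Genes of the methylation machinery were mostly unmethylated at their starts and stayed so. Of 12 such genes 11 had a cluster, 18 clusters in all, with a median difference of -0.106 points. Dnmt1 averaged 0.25% ± 0.252 early and 0.324% ± 0.0807 late, its partner Uhrf1 0.177% ± 0.0972 and 0.248% ± 0.16, and Dnmt3a 1.06% ± 0.391 and 0.747% ± 0.436. Tet enzymes, named after their values were seen, were less uniform. Tet1 averaged 90.05% ± 1.49 early and 88.3% ± 2.07 late at its start. Tet2 averaged 49.8% ± 10.6 and 44.7% ± 6.48, a difference of -5.13 points (95% interval -14.4 to 4.13), with samples from 32.8 to 58.4%. Tet3 had one start at 0.290% ± 0.162 early and 0.844% ± 0.331 late, and another at 97.4% ± 0.798 and 97.2% ± 2.36.

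The labelled cell type was checked against its lineage genes. Of 20 B-lineage transcription factors 15 had a cluster, and 11 of the 15 averaged under 10%. Pax5, the factor that commits cells to the B lineage, averaged 0.927% ± 0.203 early and 0.806% ± 0.207 late, Ebf1 0.204% ± 0.238 and 0.324% ± 0.277, and Tcf3 0.426% ± 0.248 and 0.226% ± 0.114. The median difference over the 28 clusters was -0.149 points. An exception, named after its value was seen, was Ikzf1, the endogenous gene for Ikaros. It had 3 clusters around its starts at 98.4, 98.0 and 98.6% early and 96.0, 98.0 and 97.4% late. The study's methods list the Ikzf1 promoter among promoters known to be accessible to DNaseI in this system. Whether these clusters cover the promoter in use was not tested. Pou2f2, likewise named after its values were seen, averaged 58.5% ± 15.9 and 63.8% ± 11.5 in the cluster nearest its start, a difference of 5.33 points (95% interval -13.7 to 24.3), and 1.11% ± 0.969 and 1.05% ± 0.379 in another.

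Among genes of the pre-B receptor, recombination and the B-cell surface 6 of 22 had a cluster. The surrogate light chain gene Vpreb1 averaged 0.506% ± 0.33 early and 0.247% ± 0.133 late, the kinase gene Syk 20.98% ± 2.31 and 20.4% ± 5.15, and the kinase gene Lyn 0.582% ± 0.355 and 0.491% ± 0.28. For the defining markers Cd79a and Cd79b no cluster lay within the window, so they were not checked. In contrast, 7 of 11 genes of other blood lineages with a cluster averaged over 90%. Bcl11b, a T-cell factor, averaged 98.2% ± 0.771 early and 98.5% ± 0.54 late, while the T-cell kinase gene Lck stood at 47.9% ± 2.38 and 45.5% ± 2.23 and Gata3 at 42.6% ± 10.8 and 43.8% ± 6.28. The median difference was -0.0912 points over the 9 clusters of the pre-B list and -0.0777 over the 20 of the other lineages.

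Estrogen receptor genes bear on the drug, which binds the estrogen receptor. Esr1, for estrogen receptor alpha, averaged 94.8% ± 4.42 early and 97.3% ± 1.13 late, Esr2, for receptor beta, 68.9% ± 1.41 and 68.6% ± 1.27, and the orphan relative Esrra 0.168% ± 0.102 and 0.240% ± 0.227. The 95% interval of the Esr1 difference was -1.94 to 6.84 points and that of Esr2 -2.07 to 1.61. Of the 15 genes of this list with a cluster, 8 averaged under 10% and 6 over 90%, and the median difference over 25 clusters was -0.0778 points. Over 90% were also Pgr and Greb1, genes known as estrogen targets in other tissues, both named after their values were seen, at 95.6% ± 1.08 and 97.1% ± 3.17 early and 95.9% ± 0.912 and 94.2% ± 2.84 late.

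Genes of glycolysis, nutrient uptake and the cell cycle lay mostly near 0. Of 19 genes of glycolysis and nutrient uptake with a cluster, 17 averaged under 10%, and the median difference over 22 clusters was 0.0202 points. The glucose transporter genes Slc2a1 and Slc2a3 averaged 0.584% ± 0.442 and 0.288% ± 0.218 early and 0.748% ± 0.381 and 0.296% ± 0.313 late, and the hexokinase gene Hk1 1.36% ± 0.995 and 1.10% ± 1.34. Of 21 cell-cycle genes with a cluster, 18 averaged under 10%, with a median difference of -0.0164 points over 32 clusters. The cyclin genes Ccnd3 and Ccne1 were at 0.194% ± 0.226 and 0.307% ± 0.174 early and 0.420% ± 0.567 and 0.252% ± 0.166 late. Ccnd1, the gene for cyclin D1, had 2 clusters over its start, one at 47.1% ± 6.73 early and 44.6% ± 7.13 late and the other at 9.19% ± 6.69 and 9.83% ± 3.802. Cdkn1c and Cdkn2a, named after their values were seen, were methylated. A cluster over a Cdkn1c start averaged 97.1% ± 1.29 early and 98.3% ± 0.548 late. Cdkn2a averaged 72.7% ± 3.65 and 71.2% ± 4.22 over a start. Another Cdkn2a cluster averaged 40% ± 8.95 and 45.7% ± 11.7, a difference of 5.71 points (95% interval -8.5 to 19.9).

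Imprinted genes held both fully methylated starts and starts at intermediate levels. Igf2 averaged 97.3% ± 0.507 early and 96.9% ± 1.12 late, and Igf2r 97.7% ± 0.668 and 96.4% ± 1.33. Kcnq1ot1, whose cluster of 22 complete positions is printed among the sequences, was at 39.9% ± 5.55 early and 42.0% ± 8.6 late, with samples from 33.7 to 55.9%. The difference of 2.10 points had a 95% interval from -6.81 to 11. Gnas, a complex imprinted gene with several starts that is named after its values were seen, had one cluster that differed by 8.17 points (95% interval -2.2 to 18.5), from 46.8% ± 5.67 to 55.0% ± 10.1, and another over a start at 0.331% ± 0.172 and 0.385% ± 0.25. Over 34 clusters of 20 imprinted genes the median difference was 0.0473 points.

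Starts of germline, developmental and Hox genes were mostly methylated. Of 12 germline genes with a cluster 10 averaged over 90%, among them Dazl, for an RNA-binding protein of germ cells, at 97.3% ± 0.972 early and 97.4% ± 1.18 late, the helicase gene Ddx4 at 95.5% ± 2.66 and 94.98% ± 2.21, and Sycp1, of the synaptonemal complex, at 98.7% ± 1.28 and 98.6% ± 2.14. Of 28 developmental transcription factor genes 24 averaged over 90%. Pax2 averaged 93.9% ± 0.757 early and 93.9% ± 0.725 late, Pax3 93.7% ± 1.95 and 93.6% ± 1.44, and Pax6 97.4% ± 0.939 and 96.5% ± 0.638. The median difference was 0.0721 points over the 15 germline clusters and -0.105 over the 56 developmental ones, of which the exonic Neurog2 cluster was the lowest.

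Hox genes, which set position along the body axis, had 55 clusters for 35 of 39 genes, of which 27 averaged over 90%, 7 between 10 and 90% and 1 under 10%. Hoxa2 averaged 98.0% ± 0.868 early and 96.4% ± 1.68 late, Hoxa3 58.9% ± 5.31 and 59.2% ± 4.79, and Hoxa4 95.9% ± 0.659 and 96.5% ± 1.54. Named after their values were seen, Hoxb4 was the exception at the low end, with 0.718% ± 0.435 and 0.793% ± 0.277, and Hoxb8 differed most, by 8.61 points (95% interval -1.76 to 18.99). Hoxb8 samples ran from 19.3 to 54.3%, and its groups overlapped. The median difference over the Hox clusters was 0.0539 points.

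**Figure D5:**
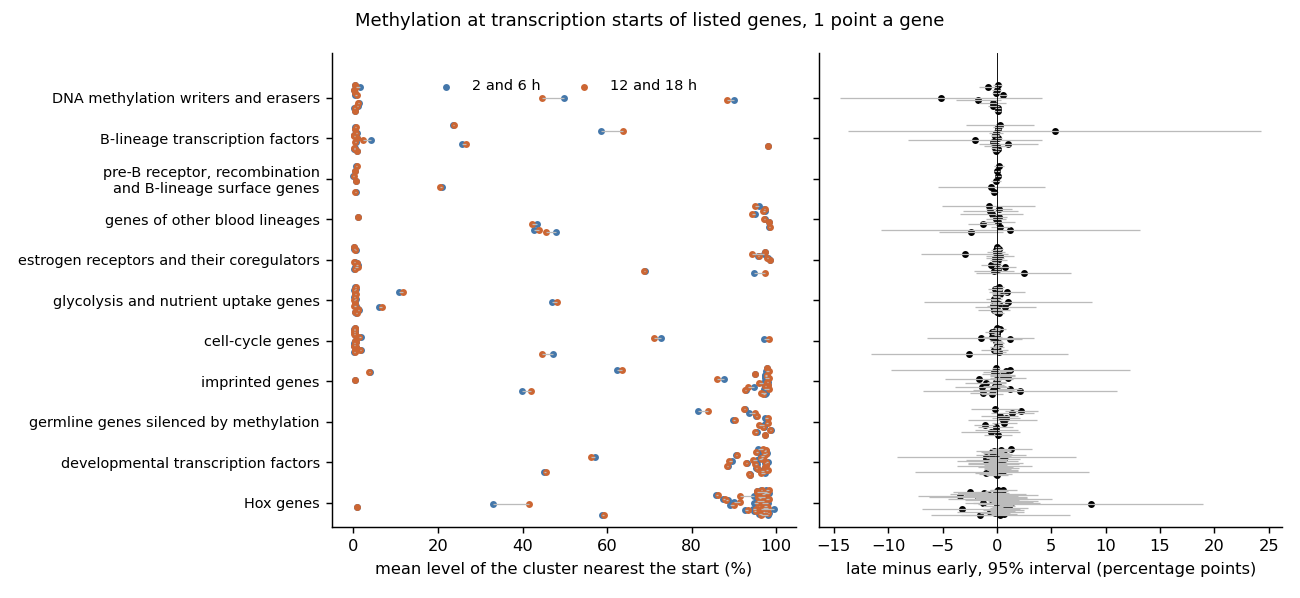
Left, mean level in percent at 2 and 6 h (blue) and 12 and 18 h (orange) of the cluster nearest the start of each listed gene, 1 pair of points a gene joined by a line, by list. Right, the late minus early difference in percentage points with its 95% interval. Among the differences farthest from 0 are those of Hoxb8 (8.61 points) and Tet2 (-5.13 points).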

How the data were processed

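RRBS was measured by the study in 36 B3 samples, and 12 Control samples were compared here. The authors trimmed reads with Trim-Galore, mapped them with Bismark 0.10.1 to GRCm38, limited coverage and smoothed levels within clusters with BiSeq. The levels that the authors deposited are smoothed fractions between 0 and 1, given here in percent. A second deposited table holds M-values (log2), which served as an alternative. No read counts accompany the levels, so depth at each position and counting error are unknown, and precision is given by the spread between samples only. Whether replicates are separate cultures rests on the study's batches.

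Positions at most 100 bp apart were joined, and each cluster took the mean over positions with a value in all 12 samples. Clusters were fitted with limma 3.58.1 in R 4.3.3 (late against early, batch as a block) with Benjamini-Hochberg adjustment at 0.05. Single values were compared by exact permutation within batches. The limma fit and the permutation within batches were tested on simulated data. Clusters simulated for the limma fit had independent normal noise, without batch effects, smoothing or bounds at 0 and 100%. They therefore do not show how the fit performs on these levels. Gene starts, exons and UTRs came from GENCODE M21, and sequences from the RefSeq copy of GRCm38. Figures used matplotlib 3.10.9, tables Python 3.11.15, numpy 2.4.6 and pandas 2.3.3.

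In the 12 samples compared, replicates 1, 2 and 3 are batches 1, 3 and 4 in the labels (batches 1, 2 and 4 at 0 h), and the study describes each batch as flasks harvested together, so samples were paired by batch. Deviations from the time means correlated at 0.0109 on average within batches (-0.105 to 0.104, 18 pairs) and -0.0052 between them.

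The samples, gene lists and tests were chosen with earlier results of these data known. Named were clusters past the test, then clusters without overlap that differed by 5 points, and the first 3 genes of each list with a cluster. Others are said to be named after their values were seen. Alternatives were a fit without the block, M-values, time as a factor, a trended prior, 12 or 18 h alone, other position sets, medians, autosomes, the share of levels at exactly 0 or 100% as a covariate, other windows and starting levels, and each sample left out; leaving out batch 4, and leaving out samples at single positions, were added after the data were seen.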

Additional observations from a re-analysis of the deposited data

Results flagged for a closer look

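Of 28 groups of 6 values examined, 3 had 1 sample far from the rest, where chance would give about 1 in 20. In clusters under 10% at 0 h, the 12 h sample of batch 4 had a mean of 1.06%, above the other late samples. At the Neurog2 exon cluster the 2 h sample of batch 1, at 84.9%, lay below the other early samples. The 2 h sample of batch 4 lacked a value at 2.79% of positions, more than the other early samples.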

How the results depend on the processing

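Every alternative fit called 0 clusters in both directions except the fit without the 12 h sample of batch 3, so the counts without 1 replicate ran from 0 to 1 higher (B3gnt8) and stayed at 0 lower. Without the replicate block the counts stayed at 0 and the mean difference at 0.00906 points; the block changed no call. With 2 points in place of 5, 4 clusters without overlap were higher and 3 lower, and with 10 points 0 were higher and 1 lower. Leaving out samples gave 1 to 12 such clusters higher and 2 to 19 lower, the highest counts without batch 4, where fewer samples make separation easier. Mean differences turned sign but stayed within the spread. With 12 h alone they were -0.00568 points over all clusters, -0.354 in intermediate, 0.0241 in methylated, -0.00196 at protein-coding starts, -0.0162 at other starts and 0.00782 in exons. With 18 h alone they were -0.0062 in unmethylated clusters, -0.0175 in introns and 0.0158 in intergenic DNA. Positions complete in all 36 samples gave 0.0183 in exons and -0.0528 in introns, and windows of 500 and 2000 bp gave 0.00382 and 0.0163 in exons. Without 1 sample or batch the differences ran from -0.0517 to 0.0688 over all clusters, -0.00325 to 0.0496 in unmethylated, -0.36 to 0.429 in intermediate, -0.0604 to 0.0105 in methylated clusters, -0.0394 to 0.0742 at protein-coding starts, -0.0658 to 0.0987 at other starts, -0.0541 to 0.041 in exons, -0.0726 to 0.083 in introns and -0.173 to 0.0329 in intergenic DNA. With the starting level taken from the early samples, the difference was 0.213 in intermediate and -0.0731 in methylated clusters, and with that of all 12 samples 0.0376 and -0.0164. The difference between the series ran from 0.0671 to 0.184. The cause of these turns was not tested. Read depth at each position is unknown, and its effect on the differences could not be examined directly.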
